A study of Mus musculus with 4 samples.

Results

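The miR-26 and miR-103/miR-107 families were followed through the small RNA of plasma exosome preparations from tumour-bearing mice. Their 4 guide strands, the hairpin arms that are normally loaded into Argonaute, were taken by name: mmu-miR-26a-5p, mmu-miR-26b-5p, mmu-miR-103-3p and mmu-miR-107-3p (written below without the species prefix), which are 4 of the 1809 mature miRNAs listed for all libraries. The tested animals were gp49B-/- mice (gp49B KO), which lack an inhibitory receptor of myeloid cells, and the others were wild type (WT). All were of the C57BL/6 strain, and all had been given LLC cells (Lewis lung carcinoma, a lung tumour line of mouse origin) into a vein 21 days before plasma was taken, so no tumour-free group enters any comparison. Each genotype had 2 libraries, numbered pool 1 and pool 2, and a library came from pooled plasma, 4 samples in each KO pool and 3 in each WT pool. The labels do not give the age of the mice, how the gp49B allele was made, or whether pools of the same number were handled together or hold different mice, so p-values measure the spread between these pools only. The deleted gene encodes a protein and was not measured in these libraries.

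A miRNA finds its mRNA targets mainly through its seed, bases 2 to 8 from the 5′ end. The hairpins of both families lie in introns of protein-coding genes and are copied with them. The miR-26 hairpins sit in the genes of small phosphatases that act on the tail of RNA polymerase II and in human cells restrain entry into the cell cycle, and miR-26a is known for lowering the Polycomb methyltransferase Ezh2 and for its loss in liver tumours. The miR-103 and miR-107 hairpins sit in genes of pantothenate kinases, which start coenzyme A synthesis. These 2 miRNAs are known to lower insulin sensitivity in mouse liver and fat and to target Dicer in human cells. All 4 are found in most tissues, and miR-103 is used as a reference for scaling miRNA measurements in human plasma.

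The guide strands are shown first because the counts turn on how alike they are. Sequences are from RefSeq (GRCm38.p6), where 4 of 4 members matched by name, and capitals mark the seed.
miR-26a-5p: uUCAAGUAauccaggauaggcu
miR-26b-5p: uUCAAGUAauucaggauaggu
miR-103-3p: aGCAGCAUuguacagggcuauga
miR-107-3p: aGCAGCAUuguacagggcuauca
miR-16-5p: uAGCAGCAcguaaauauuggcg
Counted from 1 at the 5′ end, miR-103-3p and miR-107-3p differ by G22C alone (miR-103-3p base first) and share bases 1 to 21, so a read that ends before base 22 matches both. The miR-26 members differ by C11U and C21U (miR-26a-5p base first) and by length, 22 and 21 bases. Each seed occurred in no other of the 1679 RefSeq mature miRNAs than its own 2 family members. Bases 1 to 7 of miR-103-3p and miR-107-3p are the seed of miR-16-5p, shown for that reason, so the miR-103/miR-107 seed is the miR-15/16 seed moved by 1 base. The counting of reads that match more than 1 miRNA is a point not given in the sources used here, so the split within a family is less certain than its sum.

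The hairpins, with the guide strand in capitals, show that the families differ in which arm is used: the 5′ arm in miR-26 and the 3′ arm in miR-103/miR-107.
Mir26a-1: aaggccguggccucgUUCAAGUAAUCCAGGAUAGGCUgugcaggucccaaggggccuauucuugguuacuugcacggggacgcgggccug
Mir26a-2: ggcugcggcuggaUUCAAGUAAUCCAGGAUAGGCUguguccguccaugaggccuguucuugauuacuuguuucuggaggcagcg
Mir26b: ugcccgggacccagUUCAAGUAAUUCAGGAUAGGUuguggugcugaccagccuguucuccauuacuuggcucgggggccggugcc
Mir103-1: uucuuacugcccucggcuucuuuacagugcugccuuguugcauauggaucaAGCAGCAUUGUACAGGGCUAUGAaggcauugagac
Mir103-2: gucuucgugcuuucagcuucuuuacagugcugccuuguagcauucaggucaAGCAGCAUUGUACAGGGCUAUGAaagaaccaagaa
Mir107: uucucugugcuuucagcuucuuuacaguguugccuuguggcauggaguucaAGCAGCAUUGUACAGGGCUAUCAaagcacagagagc
Positions below are on GRCm38, and those of the guide strands were the same in the deposited files and in RefSeq. Mir26a-1 lies at chr9:119031796-119031885 on the plus strand, in intron 5 of Ctdspl, and Mir26a-2 at chr10:126995530-126995613 on the plus strand, in intron 5 of Ctdsp2. Both give the same miR-26a-5p, so its count cannot be assigned to a locus. Mir26b lies at chr1:74394310-74394394 on the plus strand, in intron 4 of Ctdsp1. Mir103-1 lies at chr11:35782396-35782481 on the plus strand, in intron 5 of Pank3, and Mir103-2 at chr2:131288052-131288137 on the plus strand, in intron 5 of Pank2, and these also share a guide strand. Mir107 lies at chr19:34820687-34820773 on the minus strand, in intron 5 of Pank1. All 6 hairpins lie on the strand of their host gene and overlap 0 exons of the host transcripts that span them (GENCODE M21).

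Unique molecular identifiers (UMIs) tag single molecules before amplification, and libraries held 1709669 and 3630249 miRNA UMIs in KO pools 1 and 2, against 1577749 and 3170219 in WT pools 1 and 2. Sequencing reached 2.11 reads per UMI in KO and 1.69 in WT in pool 2, against 5.70 in KO and 5.29 in WT in pool 1. Members are given on 2 scales. The first is UMIs per 1000000 miRNA UMIs of the library. The second is CPM, the same quantity after TMM scaling, which sets libraries to each other by the middle of all miRNA ratios. TMM factors were 1.503 and 0.684 in KO pools 1 and 2 and 1.70 and 0.574 in WT pools 1 and 2, so the choice of scale acts mostly on pool number. Scaled on total UMIs, the median KO over WT ratio of all tested miRNAs was 0.880 in pool 1 and 1.18 in pool 2, against 0.994 and 0.989 with TMM. Intervals given for single libraries, and for ratios of 2 libraries, are exact 95% binomial intervals and cover counting error only.

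In pool 1 the miR-26 family was higher in gp49B KO than in WT, and in pool 2 it was not. The guide strand miR-26a-5p had 3900 UMIs in KO pool 1 and 2857 in KO pool 2, beside 1771 in WT pool 1 and 2652 in WT pool 2. This was, per 1000000 miRNA UMIs, 2281 and 787 in KO pools 1 and 2 and 1122 and 837 in WT pools 1 and 2, so KO pool 1 stood above the other libraries and the genotypes overlapped. After TMM scaling miR-26a-5p had 1518 and 1151 CPM in KO pools 1 and 2, against 662 and 1458 CPM in WT pools 1 and 2, and on this scale it was WT pool 1 that stood apart, as the lowest. Its KO over WT ratio was 2.29 in pool 1 (2.17 to 2.43) with TMM scaling and 2.03 (1.92 to 2.15) on total UMIs. In pool 2 it was 0.789 (0.749 to 0.833) with TMM and 0.941 (0.892 to 0.992) on total UMIs. Over both pools its level after TMM scaling averaged 1335 ± 260 CPM in KO, beside 1060 ± 563 CPM in WT (SD, n = 2 each).

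The other miR-26 member, miR-26b-5p, showed a smaller difference in the same pool. It had 3961 and 4685 UMIs in KO pools 1 and 2, against 2454 and 4114 in WT pools 1 and 2. These were, per 1000000 miRNA UMIs, 2317 and 1291 in KO and 1555 and 1298 in WT, and the order of libraries in pool 1 was again KO above WT. Its KO over WT ratio with TMM was 1.68 in pool 1 (1.60 to 1.77), below that of miR-26a-5p, and 0.835 in pool 2 (0.800 to 0.870). On total UMIs these were 1.49 (1.42 to 1.57) and 0.994 (0.953 to 1.04), so the pool 2 libraries did not differ beyond counting error on that scale. The level of miR-26b-5p averaged 1715 ± 244 CPM in KO, beside 1589 ± 951 CPM in WT after TMM scaling (SD, n = 2 each).

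Summed, the miR-26 family took 0.460% of miRNA UMIs in KO pool 1 (0.450 to 0.470%) and 0.208% (0.203 to 0.212%) in KO pool 2, beside 0.268% (0.260 to 0.276%) in WT pool 1 and 0.213% (0.208 to 0.219%) in WT pool 2. The 3 libraries other than KO pool 1 thus lay within 0.208 to 0.268%. After TMM scaling the sum was 3060 and 3038 CPM in KO pools 1 and 2, against 1579 and 3719 CPM in WT pools 1 and 2, so that WT pool 1 was the library set apart. The difference of the means was 0.0932 percentage points, with a two-sided exact permutation p of 1, where 2 against 2 libraries allow no p below 0.3333.

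**Figure D1:**
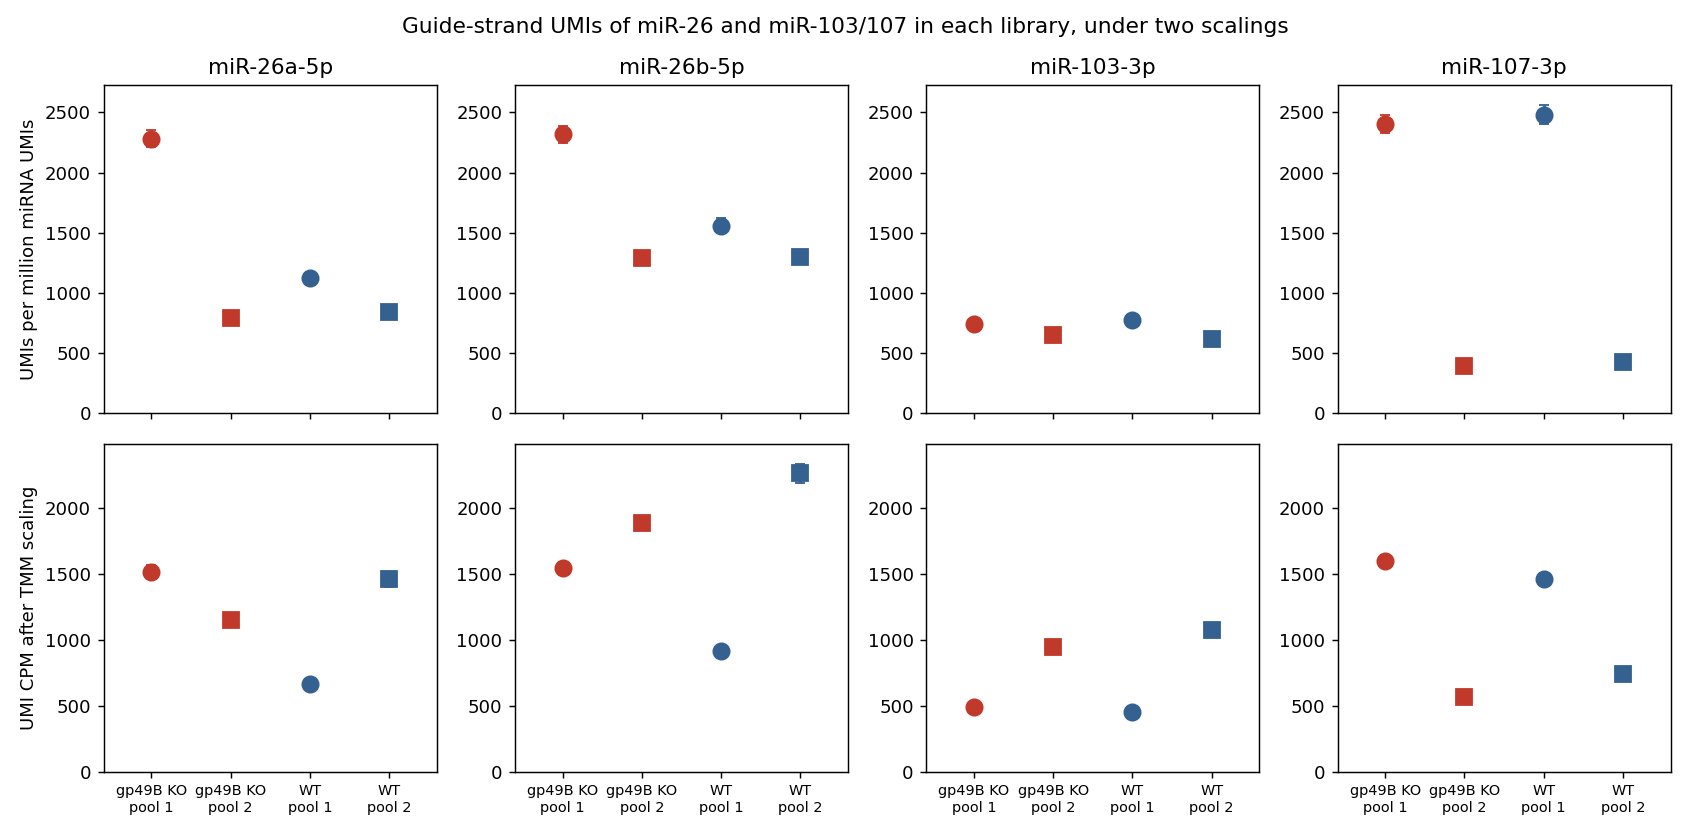
Levels of the 4 guide strands in each library, as UMIs per 1000000 miRNA UMIs (upper row) and as CPM after TMM scaling (lower row), with gp49B KO in red and WT in blue, pool 1 as circles and pool 2 as squares. Bars are exact 95% counting intervals and are mostly smaller than the points. On the upper scale miR-107-3p lies at 388 and 426 in the pool 2 libraries of KO and WT, against 2400 and 2480 in their pool 1 libraries.

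In the miR-103/miR-107 family no guide had a ratio of the genotypes within a pool that reached the 1.49 to 2.29 of the miR-26 members in pool 1. Its more even member, miR-103-3p, had 1270 and 2346 UMIs in KO pools 1 and 2, against 1217 and 1956 in WT pools 1 and 2. It lay, per 1000000 miRNA UMIs, at 743 and 646 in KO and 771 and 617 in WT, so KO lay a little below WT in pool 1 and a little above it in pool 2. With TMM the KO over WT ratio was 1.09 (1.00 to 1.18) for pool 1 and 0.879 (0.827 to 0.934) for pool 2, and it was 0.963 (0.890 to 1.04) and 1.05 (0.986 to 1.11) on total UMIs. Its direction within each pool therefore turned with the scale, and on total UMIs both intervals held 1. After TMM scaling miR-103-3p averaged 720 ± 319 CPM in KO, beside 765 ± 439 CPM in WT (SD, n = 2 each).

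For miR-107-3p the genotypes lay close together within a pool and the pools lay far apart. It had 4103 and 1408 UMIs in KO pools 1 and 2, against 3913 and 1352 in WT pools 1 and 2. This was, per 1000000 miRNA UMIs, 2400 and 388 in KO and 2480 and 426 in WT. With TMM its KO over WT ratio was 1.09 (1.05 to 1.14) for pool 1 and 0.763 (0.708 to 0.823) for pool 2, and it was 0.968 (0.926 to 1.01) and 0.909 (0.843 to 0.981) on total UMIs, so its direction in pool 1 turned with the scale. Its level averaged 1082 ± 728 CPM in KO, beside 1103 ± 509 CPM in WT after TMM scaling (SD, n = 2 each). Summed, the family took 0.314% and 0.103% of miRNA UMIs in KO pools 1 and 2, against 0.325% and 0.104% in WT pools 1 and 2, a difference of means of -0.00591 percentage points (two-sided exact permutation p = 0.667).

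**Figure D2:**
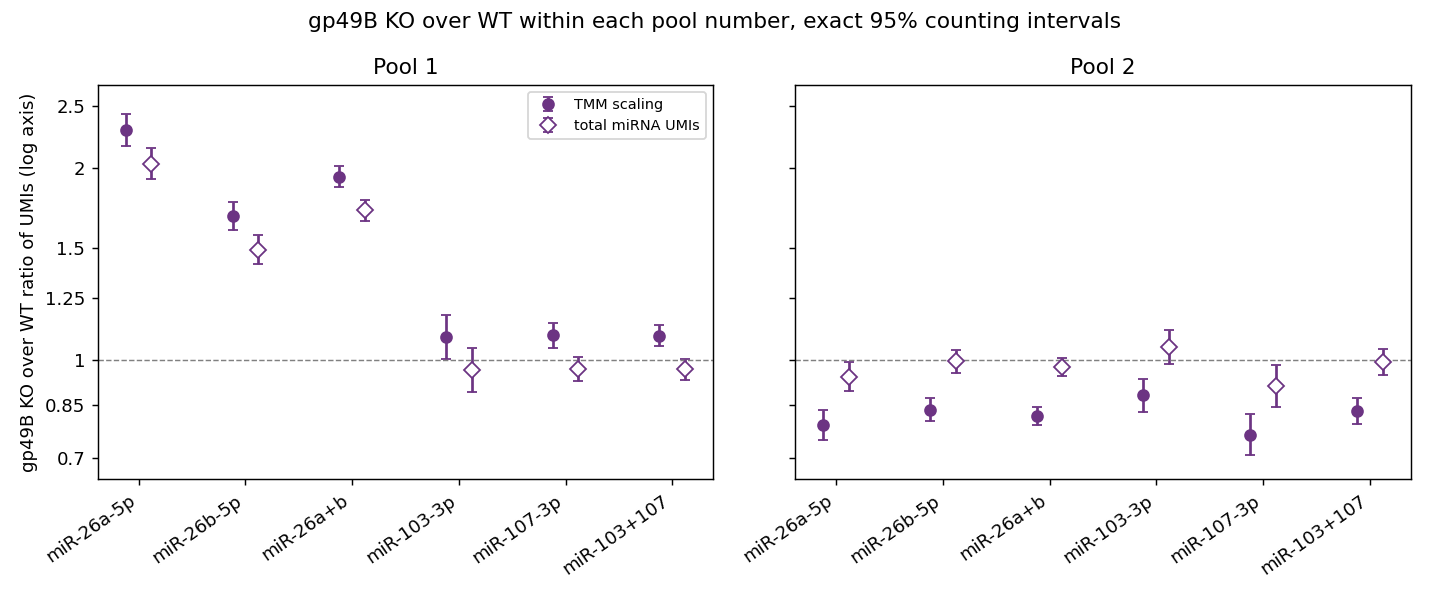
KO over WT ratio of UMIs within pool 1 (left) and pool 2 (right) on a log axis for the 4 guide strands and the 2 family sums, with TMM scaling (filled circles) and scaling on total miRNA UMIs (open diamonds). Bars are exact 95% counting intervals. The miR-26 points of pool 1 lie between 1.49 and 2.29, and all other points lie between 0.763 and 1.09.

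The comparison of gp49B KO with WT over all libraries called 0 of the 4 members. The log2 fold change of miR-26a-5p was 0.33 (SE 0.68) and that of miR-26b-5p 0.11 (SE 0.71), against -0.09 (SE 0.68) for miR-103-3p and -0.03 (SE 0.72) for miR-107-3p. Each had an adjusted p of 0.99995 with edgeR's quasi-likelihood test and Benjamini-Hochberg adjustment over 1797 miRNAs, and unadjusted p were 0.633, 0.880, 0.900 and 0.971 in the same order. The standard errors of 0.68 to 0.72 on the log2 scale were larger than each of these estimates. Of all 1797 miRNAs tested 0 were called higher in KO (0%) and 0 lower (0%), with 32 (1.78%) at an unadjusted p under 0.05, and limma-voom and DESeq2 also called 0, with 27 and 28 at that unadjusted threshold. Leaving out KO pool 2 gave 3 calls and leaving out WT pool 2 gave 2, with 0 members among them.

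**Figure D3:**
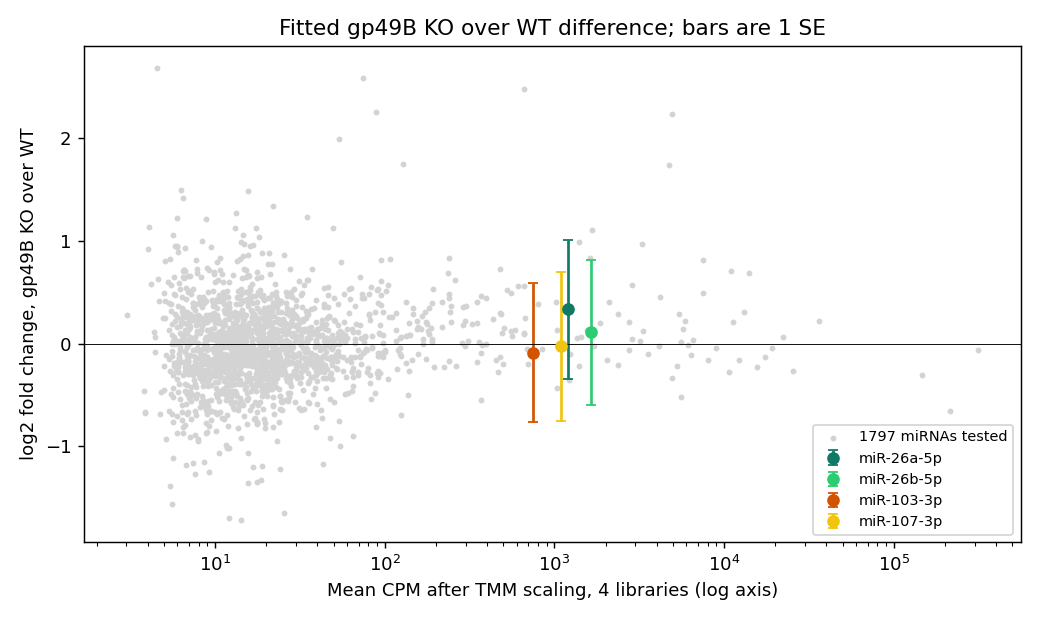
Fitted log2 fold change of gp49B KO over WT against mean CPM after TMM scaling (log axis) for 1797 miRNAs (grey), with the 4 guide strands in colour and bars of 1 SE. The 4 estimates lie between -0.09 and 0.33, and each bar crosses 0.

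Both KO libraries lay above both WT libraries for 0 of the 4 members and below them for 0, on either scale. Among all tested miRNAs 9.52% lay above and 11.6% below with TMM, and 3.28% above and 2.11% below on total UMIs. With TMM all 4 members were higher in KO in pool 1 and lower in KO in pool 2, a pattern of 24.8% of all tested miRNAs and of 31.8% of the 352 averaging at least 100 UMIs. On total UMIs that pattern held for the 2 miR-26 members and for neither miR-103-3p nor miR-107-3p, beside 10.2% of all tested miRNAs and 11.1% of those averaging at least 100 UMIs. The 4 ratios of a pool share its libraries and their scaling, so they are not separate observations.

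The balance of the families needs no scaling, since both are counted in the same library. The miR-26 family had 1.46 UMIs per miR-103/miR-107 UMI in KO pool 1 (1.41 to 1.51) and 2.01 (1.93 to 2.09) in KO pool 2, beside 0.824 (0.791 to 0.858) in WT pool 1 and 2.05 (1.96 to 2.13) in WT pool 2. The pool 2 libraries thus had the same balance within counting error, and in pool 1 the KO balance was 1.78 times that of WT. Over both pools the log2 balance averaged 0.78 ± 0.32 in KO, beside 0.38 ± 0.93 in WT (SD, n = 2 each; two-sided exact permutation p = 1). Levels of different miRNAs also depend on how well each sequence is captured, which was not measured, so the balance is compared between libraries and not read as an amount.

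Within the miR-103/miR-107 family the split between the members followed pool number more than genotype. The share of miR-103-3p in miR-103-3p plus miR-107-3p was 62.5% (60.9 to 64.0%) for pool 2 and 23.6% (22.5 to 24.8%) for pool 1 of KO. The WT share was 59.1% (57.4 to 60.8%) for pool 2 and 23.7% (22.6 to 24.9%) for pool 1. The more abundant of the 2 was thus miR-103-3p in both pool 2 libraries and miR-107-3p in both pool 1 libraries. Counted in reads the shares were 62.5% and 58.4% in pool 2 of KO and WT against 22.1% and 22.1% in pool 1. By genotype the share averaged 43.1 ± 27.5% in KO, beside 41.4 ± 25.0% in WT (SD, n = 2 each; two-sided exact permutation p = 1).

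On total UMIs miR-107-3p differed more between pools than miR-103-3p did. Its pool 2 over pool 1 ratio was 0.162 in KO (0.152 to 0.172) and 0.172 in WT (0.162 to 0.183) on total UMIs, against 0.870 (0.812 to 0.932) and 0.800 (0.744 to 0.860) for miR-103-3p. With TMM the ratio of miR-107-3p was 0.355 in KO and 0.508 in WT and that of miR-103-3p 1.91 and 2.36, so miR-107-3p was lower in pool 2 on both scales and miR-103-3p turned direction between them. A difference in this direction is common: on total UMIs both pool 2 libraries lay below both pool 1 libraries for all 4 members and for 88.5% of all tested miRNAs, or 78.1% of those averaging at least 100 UMIs, and above for 0 members, beside 1.17% and 3.41%. With TMM both pool 2 libraries were below for miR-107-3p, as for 28.7% of all tested and 22.4% of those averaging at least 100 UMIs. They were above for miR-26b-5p and miR-103-3p, as for 28.7% and 49.1%, and overlapped with pool 1 for miR-26a-5p.

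In log2 of miR-103-3p over miR-107-3p the pools differed by 2.32 (pool 2 minus pool 1), while KO minus WT was -0.01 in pool 1 and 0.20 in pool 2. Near-identical miRNAs elsewhere in the libraries give the setting for that value, a comparison chosen after the data were seen. RefSeq sequences were found for 307 miRNAs averaging at least 100 UMIs, among which 30 pairs differed by 1 or 2 letters. The median absolute difference between pools over these pairs was 0.53, that of miR-103-3p and miR-107-3p was the largest of the 30, and the next, let-7c-5p and let-7e-5p, had 1.54. For KO minus WT the median absolute difference was 0.17, with 0.10 for miR-103-3p and miR-107-3p. Pairs within let-7 share members, so the 30 are not independent. The cause of the split between pool numbers was not tested, and pool number also goes with reads per UMI and with the list of features counted.

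**Figure D4:**
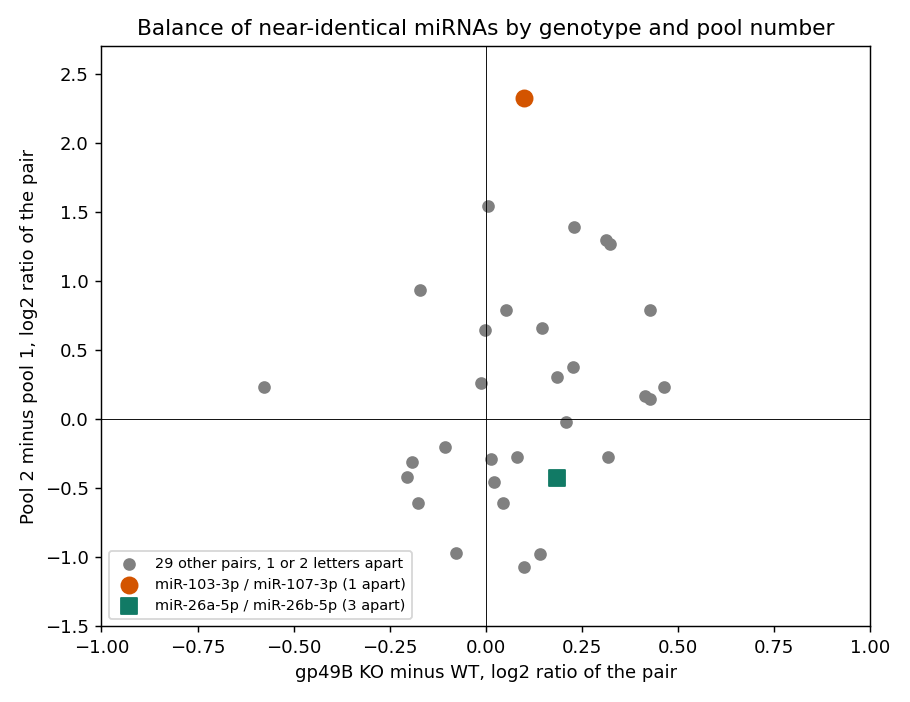
Difference in the log2 ratio of near-identical miRNAs between pool numbers (vertical, pool 2 minus pool 1) and genotypes (horizontal, gp49B KO minus WT), with 1 point per pair. The pair miR-103-3p and miR-107-3p lies at 2.32 on the vertical axis and 0.10 on the horizontal axis, above the 29 other pairs, and miR-26a-5p and miR-26b-5p, which differ by 3 letters, lie at -0.43 and 0.18.

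Within the miR-26 family the split moved less. The share of miR-26a-5p in miR-26a-5p plus miR-26b-5p was 49.6% in KO pool 1 (48.5 to 50.7%) and 37.9% (36.8 to 39.0%) in KO pool 2, beside 41.9% (40.4 to 43.4%) in WT pool 1 and 39.2% (38.0 to 40.4%) in WT pool 2. KO pool 1 again stood apart, with counts of both members that were equal within counting error. Counted in reads its miR-26a-5p share was 51.0%. In the other libraries miR-26b-5p was the more abundant in both kinds of count. The mean share was 43.7 ± 8.3% in KO, beside 40.6 ± 1.9% in WT (SD, n = 2 each; two-sided exact permutation p = 1).

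The partner arms of the same hairpins, which are mostly degraded after loading of the guide, were all detected, at low counts. In pool 1 the smallest UMI count above 0 listed for any feature was 10, so counts near it are close to the limit of what was listed. The 5′ arms of miR-103 and miR-107 differ from each other in other places than the guides do, and capitals mark them here.
miR-103-1-5p: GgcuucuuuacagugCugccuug
miR-103-2-5p: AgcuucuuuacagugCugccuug
miR-107-5p: AgcuucuuuacagugUugccuug
For miR-107-5p there were 28 and 61 UMIs in KO pools 1 and 2, against 18 and 25 in WT pools 1 and 2. The miR-103-1-5p and miR-103-2-5p arms together had 42 and 28 UMIs in KO, against 38 and 16 in WT. The share of the miR-103 arms in the 5′ arms of miR-103 and miR-107 was therefore 31.5% (22.0 to 42.2%) for pool 2 and 60% (47.6 to 71.5%) for pool 1 of KO. The WT share was 39.0% (24.2 to 55.5%) for pool 2 and 67.9% (54.0 to 79.7%) for pool 1, with intervals that overlapped slightly. In both genotypes this share was lower in pool 2, while that of the miR-103-3p guide was higher in pool 2, so the partner arms and the guides of these hairpins moved apart.

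**Figure D5:**
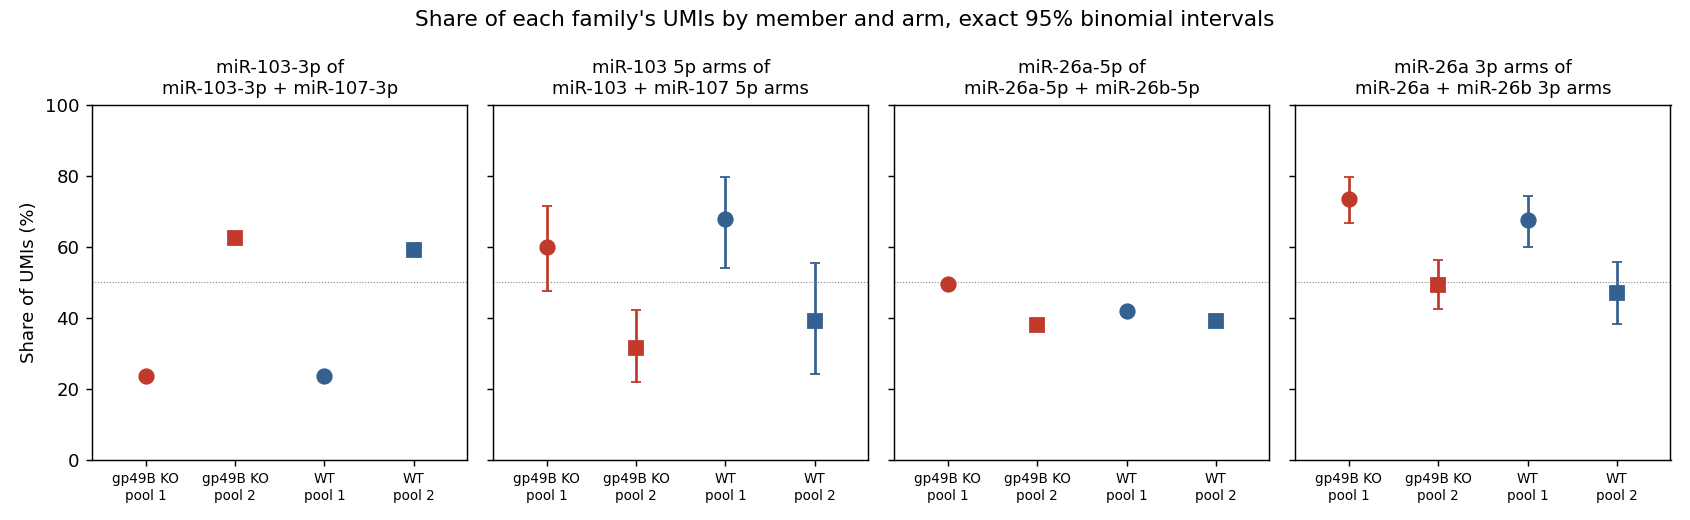
Share of UMIs, in percent, of miR-103-3p among the guides of its family, of the miR-103 arms among the partner arms, of miR-26a-5p among the miR-26 guides and of the miR-26a arms among the miR-26 partner arms, in each library, with gp49B KO in red and WT in blue, pool 1 as circles and pool 2 as squares. Bars are exact 95% binomial intervals. The first panel shows 62.5% and 59.1% in pool 2 of KO and WT, against 23.6% and 23.7% in pool 1, and the second shows the opposite order of the pools.

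As a share of both arms, miR-107-5p made up 4.15% (3.19 to 5.30%) in pool 2 and 0.678% (0.451 to 0.978%) in pool 1 of KO, and 1.82% (1.18 to 2.67%) in pool 2 and 0.458% (0.272 to 0.723%) in pool 1 of WT. The miR-103 partner arms went the other way, at 1.18% in pool 2 and 3.20% in pool 1 of KO, and 0.811% in pool 2 and 3.03% in pool 1 of WT. Between genotypes, 4 of the 6 partner arms were higher in KO within both pools on either scale, beside 24.5% of all tested miRNAs with TMM and 24.4% on total UMIs, and 0 were lower within both, beside 27.2% and 20.8%. These 4 were miR-107-5p, miR-103-2-5p, miR-26a-1-3p and miR-26a-2-3p. All have low counts, and with TMM the intervals of the last 3 named held 1 in both pools. For miR-107-5p the KO over WT ratio with TMM was 1.62 in pool 1 (0.865 to 3.11), where its interval held 1, and 1.79 in pool 2 (1.11 to 2.97), where it did not. Its log2 fold change was 0.82 (SE 0.53), with an adjusted p of 0.99995 (edgeR).

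The miR-26 partner arms were counted at 16 to 114 UMIs. Those of miR-26a tell its 2 loci apart where the guide does not. Of the miR-26a 3′ arms, miR-26a-2-3p from Ctdsp2 made up 79.2% in KO pool 1 (71.6 to 85.5%) and 75.2% (65.9 to 83.1%) in KO pool 2, beside 78.3% (69.9 to 85.3%) in WT pool 1 and 74.6% (62.1 to 84.7%) in WT pool 2. The intervals of these shares overlapped in all 4 libraries. The arm miR-26a-2-3p had 114 UMIs in KO and 94 in WT in pool 1, a ratio of 1.26 (0.953 to 1.68) with TMM, beside 2.29 (2.17 to 2.43) for the guide. In pool 2 it had 79 UMIs in KO and 47 in WT, a ratio of 1.23 (0.848 to 1.81). The 3′ arms were 3.56% of all miR-26a UMIs in KO pool 1 (3.01 to 4.18%) and 3.54% (2.91 to 4.28%) in KO pool 2, beside 6.35% (5.29 to 7.54%) in WT pool 1 and 2.32% (1.79 to 2.96%) in WT pool 2, so in pool 1 they were fewer per guide in KO. For miR-26b-3p there were 52 and 108 UMIs in KO pools 1 and 2, against 58 and 71 in WT pools 1 and 2. Among the miR-26 partner arms those of miR-26a made up 49.3% in pool 2 and 73.5% in pool 1 of KO, and 47.0% in pool 2 and 67.4% in pool 1 of WT. Of the 6 partner arms 0 were called by edgeR, 5 had estimates above 0 and 1 below, with a median log2 fold change of 0.29, beside 851 above, 946 below and a median of -0.03 over all 1797 tested miRNAs.

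Reads per UMI show the depth behind each molecule counted. They were 6.92 for miR-26a-5p in KO pool 1 and 2.24 in KO pool 2, beside 6.44 in WT pool 1 and 1.70 in WT pool 2. The other guides lay between 6.18 and 6.72 in KO pool 1 and between 2.16 and 2.26 in KO pool 2, beside 5.90 to 6.47 in WT pool 1 and 1.71 to 1.77 in WT pool 2. The median of the same 307 miRNAs was 6.18 and 2.18 in KO pools 1 and 2 and 5.85 and 1.71 in WT pools 1 and 2. In KO pool 1, 97.7% of those miRNAs had fewer reads per UMI than miR-26a-5p, and in WT pool 1, 92.2% did. Counted in reads and scaled by TMM, the KO over WT ratio of miR-26a-5p was 2.35 in pool 1 and 0.816 in pool 2, so its pool 1 difference was present in both kinds of count.

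The members lay among the 70 most abundant miRNAs and differed in how much they varied. By mean share of UMIs miR-26b-5p ranked 51, miR-107-3p 54, miR-26a-5p 56 and miR-103-3p 70 of the 1809. On total UMIs the range over the 4 libraries was 0.32 on the log2 scale for miR-103-3p, narrower than for all but 2.84% of 352 miRNAs averaging at least 100 UMIs, and 2.68 for miR-107-3p, wider than for 89.5% of them. With TMM the same ranges were 1.24 and 1.49, near each other and both above the median of 0.98. The narrow range of miR-103-3p was thus bound to the scale.

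The miRNAs nearest to each member in pattern, by distance between centred log2 CPM (TMM) over the 4 libraries, differed between the members. Nearest to miR-26a-5p were miR-10a-5p (0.13), which lies in a Hox gene cluster, miR-125a-5p (0.31) and the endothelial miR-126a-3p (0.33), beside a median distance of 1.07 over 348 candidates. The miR-10a-5p counts were 5775 and 4315 UMIs in KO pools 1 and 2, against 2858 and 4380 in WT pools 1 and 2, with the lowest count also in WT pool 1. Nearest to miR-26b-5p were miR-378a-3p (0.15), miR-30d-5p (0.18) and miR-28a-3p (0.20). For miR-103-3p they were miR-1298-5p (0.07), miR-19b-3p of the miR-17/92 cluster (0.10) and miR-186-5p (0.12), and for miR-107-3p miR-6946-3p (0.21), let-7a-2-3p (0.27) and miR-21c (0.27). The distance between miR-103-3p and miR-107-3p was 2.33, greater than the 0.53 between miR-103-3p and miR-26b-5p and the 0.53 between the miR-26 members. Distances rest on 4 libraries and are a description only.

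Lists of comparable miRNAs held 0 calls between genotypes. Of 35 miRNAs in introns of protein-coding genes, 0 were called by edgeR in either direction, 22 had estimates above 0 and 13 below, and the median log2 fold change was 0.09. Over all 1797 tested miRNAs 851 estimates lay above 0 and 946 below, with a median of -0.03. Their median KO over WT ratio with TMM was 1.17 in pool 1 and 0.967 in pool 2, beside 1.94 and 0.817 for the summed miR-26 guides and 0.994 and 0.989 for the median of all tested miRNAs. On total UMIs the list medians were 1.04 and 1.15, beside 0.880 and 1.18 over all tested miRNAs, so the direction in pool 2 turned with the scale. The most abundant were miR-25-3p and miR-93-5p from Mcm7, at 0.770 and 0.767 in pool 1 with TMM and 0.682 and 0.680 on total UMIs. There miR-191-5p from Dalrd3 had 1.12 with TMM and 0.990 on total UMIs, and miR-342-3p from Evl had 1.28 and 1.14. The seed of miR-16-5p, offset by 1 base from that of miR-103/miR-107, is held by 10 RefSeq mature miRNAs. The list used here holds 6 of these, chosen as the familiar miR-15/16 members, of which 0 were called, 5 had estimates above 0 and 1 below, and the median was 0.16. Its most abundant member, miR-16-5p, had ratios of 0.939 in pool 1 and 0.965 in pool 2 with TMM, and 0.832 and 1.15 on total UMIs, so its pool 2 direction turned too. With TMM the ratios in pools 1 and 2 were 0.752 and 1.27 for miR-15b-5p, 1.48 and 1.07 for miR-195a-5p and 0.990 and 1.13 for miR-15a-5p, and on total UMIs these kept their directions, at 0.666 and 1.51, 1.32 and 1.28, and 0.877 and 1.35. Of 9 miRNAs used as references in plasma 0 were called, 3 had estimates above 0 and 6 below, and the median was -0.06. Of its most abundant members that are not given above, miR-30e-5p had ratios of 1.24 and 0.880 with TMM and 1.09 and 1.05 on total UMIs.

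Plasma holds vesicles and free RNA from many tissues, and more vesicles from a cell type cannot be told apart from more of a miRNA per vesicle. Marker miRNAs of 6 sources were all above 0 in each library. Those of myeloid cells took 4.64% and 1.14% of miRNA UMIs in KO pools 1 and 2, against 2.21% and 1.16% in WT pools 1 and 2. Platelet and endothelial markers took 3.20% and 1.39% in KO, against 2.17% and 0.934% in WT. Muscle markers took 3.73% and 0.690% in KO, against 0.404% and 0.428% in WT. On this scale of shares they were the 1 list of the 6 whose genotypes did not overlap. With TMM the summed platelet and endothelial markers were also higher in both KO libraries than in both WT libraries. Lymphocyte markers took 0.821% and 0.458% in KO, against 0.690% and 0.443% in WT. Red cell markers took 7.94% and 17.8% in KO, against 10.6% and 18.4% in WT, and liver markers took 7.49% and 20.3% in KO, against 11.4% and 27.3% in WT. On shares, the myeloid, platelet and endothelial, muscle and lymphocyte lists were thus each highest in KO pool 1, as were miR-26a-5p and miR-26b-5p. Among these lists muscle differed most from WT pool 1. With TMM both lymphocyte markers, miR-150-5p and miR-181a-5p, were lower in KO pool 1 than in WT pool 2, as was miR-26b-5p. On shares the summed red cell markers and the summed liver markers were higher in pool 2. Each of the 4 guide strands was lower there on that scale, as were 88.5% of all tested miRNAs. The most abundant of these markers were miR-486b-5p and miR-122-5p. Single markers did not all follow the sums: miR-144-3p, miR-122-3p and miR-194-5p were lower in pool 2 in both genotypes. In WT alone, miR-144-5p and miR-192-5p were lower in pool 2 too. The part of these sources in the values of the members was not tested.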

How the data were processed

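The values were UMI counts and read counts per mature miRNA, deposited by the authors as whole numbers without normalization. The authors also deposited log2 values, which equal log2 of the UMI count plus a constant per library. RNA came from ExoQuick precipitates of plasma and was turned into libraries with a QIAseq kit, per the labels' protocols. The submitters' processing notes name FastQC 0.11.9 and GRCm38/mm10. Aligner and counter were not given in the sources used here. The 1809 miRNAs listed for both pool numbers were used, and piRNAs were left out.

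KO was compared with WT in edgeR 4.0.16 (R 4.3.3) with filtering by expression (1797 kept), TMM scaling and a two-sided quasi-likelihood test with 2 residual degrees of freedom, called at an adjusted p under 0.05. Standard errors are the estimate over the root of F. Alternatives used limma 3.58.1, DESeq2 1.42.0, other scalings and filters, read counts, a block and each library left out. Shares and balances had exact permutation tests over 6 splits. Intervals and permutation tests used SciPy 1.17.1 under Python 3.11.15. The near-identical pairs were compared after the data were seen. Members and lists were chosen with earlier results of these data known. Genes named are the members, their partner arms, the 3 nearest in pattern of each member and the 4 most abundant of each list.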

Additional observations from a re-analysis of the deposited data

How the results depend on the processing

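Under 13 alternatives 0 members were called, with adjusted p of 0.925 or more for miR-26a-5p, 0.937 for miR-26b-5p, 0.996 for miR-103-3p and 0.964 for miR-107-3p. Estimates changed sign for each member when 1 library was left out. The log2 fold change ranged from -0.10 to 1.01 for miR-26a-5p, from -0.38 to 0.90 for miR-26b-5p, from -0.63 to 0.66 for miR-103-3p and from -0.94 to 0.56 for miR-107-3p. It was -0.10 and -0.38 for the miR-26 members without WT pool 1, and -0.05 for miR-26b-5p without KO pool 2. For miR-103-3p it was 0.32 without KO pool 1 and 0.66 without WT pool 2, and 0.00080 when scaled on total UMIs. For miR-107-3p it was 0.53 without KO pool 2 and 0.56 without WT pool 1. Calls over all miRNAs ranged from 0 to 3 with 1 library left out. Each such fit leaves 1 genotype with a single library, taken to vary like the other genotype.

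The difference in the miR-26 share ranged from -0.0329 (without KO pool 1) to 0.219 percentage points, and that of miR-103/miR-107 from -0.116 to 0.104, above 0 at 0.0995 without KO pool 2 and at 0.104 without WT pool 1. The difference in the miR-26a-5p share ranged from -2.68 (without KO pool 1) to 9.06 percentage points. That of the miR-103-3p share ranged from -17.8 to 21.1, below 0 at -17.8 without KO pool 2 and at -16.1 with WT pool 1 left out. The log2 balance ranged from -0.25 (without WT pool 1) to 1.06. Other denominators and read counts left these 5 directions as they were.

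Within pools, scaling on total UMIs moved each ratio beyond its TMM interval. In pools 1 and 2 these were 2.03 and 0.941 for miR-26a-5p, 1.49 and 0.994 for miR-26b-5p, 0.963 and 1.05 for miR-103-3p, 0.968 and 0.909 for miR-107-3p, 1.72 and 0.973 for the miR-26 sum and 0.967 and 0.991 for the miR-103/miR-107 sum. Read counts moved none of them beyond it.

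With pool number as a block edgeR called 0 miRNAs, with 78 at an unadjusted p under 0.05, and the log2 fold change was 0.43 for miR-26a-5p, 0.24 for miR-26b-5p, -0.03 for miR-103-3p and -0.13 for miR-107-3p. In this pairing, same-numbered libraries deviated alike from their genotype means (correlation across miRNAs 0.527), though the labels do not say that the number marks a shared day or batch. The differences in shares and balance are the same with the block, and with 2 pairs the exact sign-flip test allows no p below 0.5. Each guide rests on 1217 to 4685 UMIs per library and each partner arm on 7 to 114, and each genotype on 2 libraries.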
